A study of Homo sapiens with 6 samples.

Results

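The adenylyl cyclase family, the enzymes that make cyclic AMP (cAMP), was described by its 10 members, ADCY1 to ADCY10, which were taken by name from the 47032 gene symbols of the deposited tables. Each symbol had 1 entry in every table. Members were chosen by gene name, and the family was selected on the measured ADCY8 levels, which differed in opposite directions between parent and resistant line in 2 pairs. The ADCY8 values are therefore given as a description, with no test. RNA came from 6 human cell lines of prostate cancer, each sequenced as 1 library. Castration sensitive lines were LnCaP, grown in RPMI, VCaP, grown in DMEM, and LAPC4, grown in RPMI, each with 10% fetal bovine serum. Castration resistant lines were LnCaP-abl, VCaP-CR and LAPC4-CR, all grown in RPMI with 10% charcoal-stripped serum, which is depleted of steroids, and B27 supplement. No line received a further treatment. Medium and state thus differed together in every pair of a sensitive line with the resistant line that carries its name, and the effects of medium, resistance and clone cannot be told apart.

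Adenylyl cyclases turn ATP into cAMP. ADCY1 to ADCY9 sit in membranes and are switched on by the G protein subunit Gs, below receptors such as those for prostaglandin E, while ADCY10 is soluble and responds to bicarbonate. ADCY1 and ADCY8 are also stimulated by calcium with calmodulin, ADCY5 and ADCY6 are inhibited by calcium and by the subunit Gi, and ADCY2, ADCY4 and ADCY7 respond to the beta-gamma subunits. cAMP activates protein kinase A and EPAC, and is removed by phosphodiesterases.

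Total counts ran from 8661337 to 22433655 per library, and each resistant line had more counts than its parent. Levels are scaled FPKM, the deposited count scaled by gene length and library total and divided by 1 factor per library, so that levels of different genes can be compared per length. ERG, whose fusion marks the VCaP lineage, reached 16.9 scaled FPKM in the parent and 5.46 in VCaP-CR, against a maximum of 0.186 elsewhere. KLK3, which encodes prostate-specific antigen, was lower in each resistant line than in its parent. The 5 immune cell markers, which such lines should lack, had a median of 0.312 scaled FPKM over the libraries. The 3 endothelial markers had a median of 0.316. All 10 luminal prostate markers were found, with summed levels of 456 to 2099 in the sensitive and 230.3 to 1437 in the resistant lines. The 9 neuroendocrine markers summed to 7.21 to 18.6 and 7.66 to 54.2, and the 7 stromal ones to 2.64 to 6.96 and 3.52 to 52.2. The stromal maximum was that of VCaP-CR, where LUM alone stood at 50.2 and every other stromal marker at 0.679 or less. The part of these differences, and of depth, in the results was not tested.

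ADCY8, a calcium-stimulated cyclase known mainly from the brain (ENSG00000155897, chromosome 8, 131861729 to 132123854 in hg18), was at 90.9 scaled FPKM in LnCaP and at 0.227 in LnCaP-abl, from 5016 and 16 counts. In the VCaP pair it was at 0.172 and 0.282, from 10 and 27 counts, and in the LAPC4 pair at 0.234 in LAPC4 and 1.82 in LAPC4-CR, from 18 and 270 counts. LnCaP stood far above all other lines, and LAPC4-CR was the only other line above 1 scaled FPKM. In order of level came LnCaP, LAPC4-CR, VCaP-CR, LAPC4, LnCaP-abl and VCaP. The exact 95% Poisson intervals of the last 4 overlapped, with bounds between 0.0823 and 0.411, and their values lay below the median of the immune markers. LnCaP-abl was thus 400-fold below LnCaP (95% interval 246 to 701, counting error only), and LAPC4-CR was 7.79-fold above LAPC4 (4.83 to 13.3). On the log2(scaled FPKM + 1) scale, which understates the change of low genes, the changes were -6.23 between the LnCaP lines, 0.13 between the VCaP lines and 1.19 between the LAPC4 lines. In LnCaP, ADCY8 ranked 273 among 19951 protein-coding genes, against 9273 in LAPC4-CR and 14782 to 17514 in the other 4 lines. In bulk RNA, fewer cells that carry a transcript and less of it per cell cannot be told apart.

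**Figure D1:**
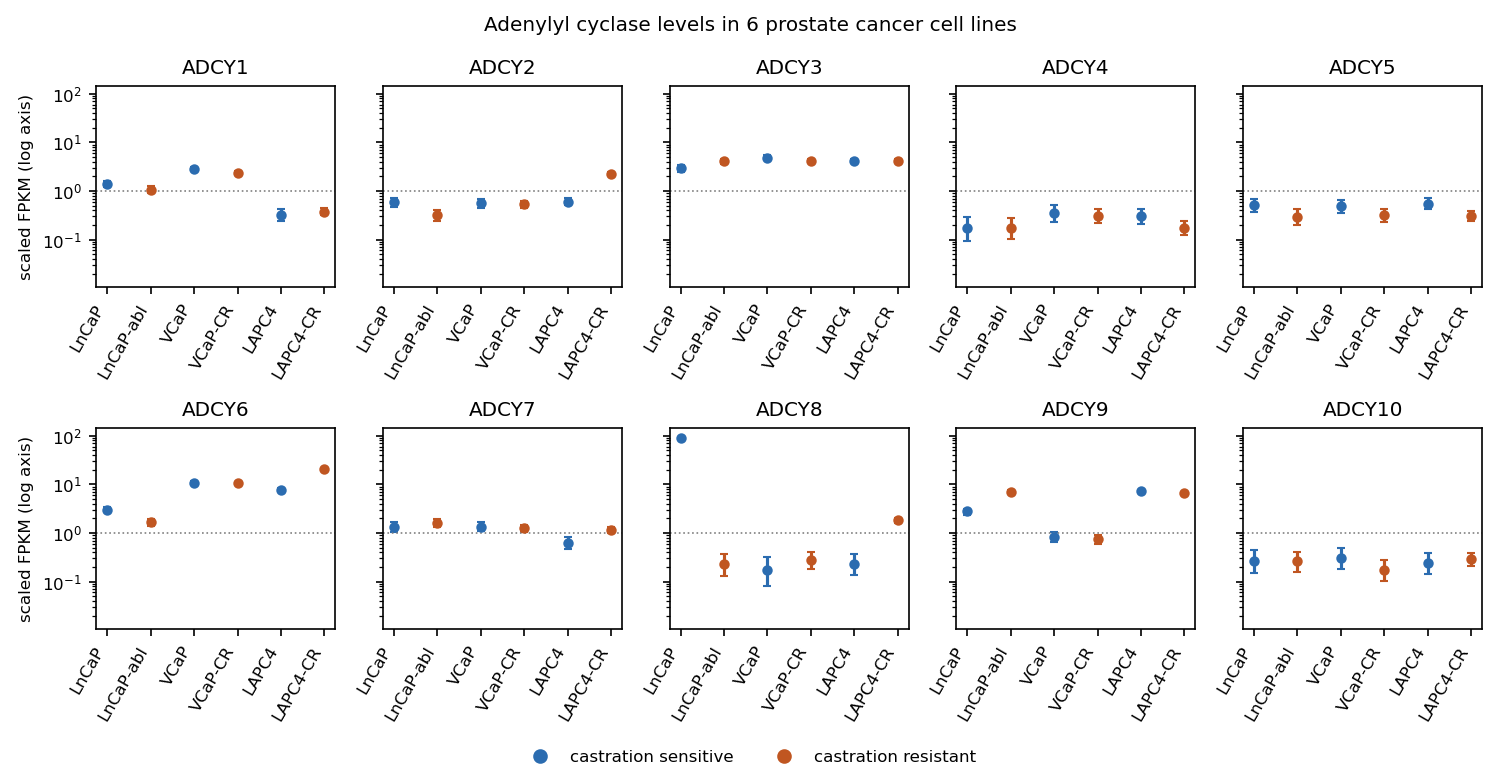
Level of each adenylyl cyclase in each line, in scaled FPKM on a log axis. Points are single libraries, bars exact 95% Poisson intervals and the dotted line 1 scaled FPKM. ADCY8 reaches 90.9 in LnCaP and stays under 2 in the other lines, ADCY6 is highest in LAPC4-CR at 20.9, and ADCY3 lies between 2.91 and 4.86 throughout.

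ADCY6, a widely expressed cyclase inhibited by calcium (ENSG00000174233, chromosome 12, 47446242 to 47469087), had the highest level in VCaP, VCaP-CR, LAPC4 and LAPC4-CR. It stood at 3.04 scaled FPKM (LnCaP) and 1.67 (LnCaP-abl), 10.9 (VCaP) and 10.6 (VCaP-CR), and 7.77 (LAPC4) and 20.9 (LAPC4-CR), from 166 to 4376 counts. The 2 lines of LnCaP origin lay below all others, and LAPC4-CR stood above all others. LAPC4-CR was 2.69-fold above LAPC4 (2.50 to 2.90, counting error only). LnCaP-abl was 1.82-fold below LnCaP (1.49 to 2.24), and the interval for the VCaP pair, 0.895 to 1.06 as the ratio of resistant to sensitive, included no change.

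ADCY9, a widely expressed cyclase that is insensitive to the plant compound forskolin (ENSG00000162104, chromosome 16, 3952658 to 4106187), was lowest in both VCaP lines and 2.50-fold higher in LnCaP-abl than in LnCaP. It stood at 2.77 scaled FPKM (LnCaP) and 6.93 (LnCaP-abl), 0.834 (VCaP) and 0.743 (VCaP-CR), and 7.22 (LAPC4) and 6.69 (LAPC4-CR). LnCaP lay between the VCaP lines and the other 3, and the intervals of LnCaP-abl, LAPC4 and LAPC4-CR overlapped. The interval of the ratio of LnCaP-abl to LnCaP was 2.13 to 2.95, while LAPC4-CR and LAPC4 were within counting error of each other (ratio 0.926, 0.845 to 1.02).

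ADCY2, which the beta-gamma subunits stimulate (ENSG00000078295, chromosome 5, 7449321 to 7883194), was high in 1 line only. It stood at 0.587 scaled FPKM (LnCaP) and 0.317 (LnCaP-abl), 0.556 (VCaP) and 0.538 (VCaP-CR), and 0.608 (LAPC4) and 2.26 (LAPC4-CR). LAPC4-CR, with 1004 counts against 140 in LAPC4, was 3.72-fold above its parent (3.12 to 4.48), and LnCaP-abl was 1.85-fold below its parent (1.34 to 2.56). Beside ADCY8, for which the family was picked, ADCY2 and ADCY6 were at least 2-fold above LAPC4 in LAPC4-CR on the log2(scaled FPKM + 1) scale, with changes of 1.02 and 1.32, so 2 of the other 9 members. With no filter on low values, 2.21% of all symbols were this much higher in LAPC4-CR and 2.36% lower. The same shares were 2.84% and 3.0% in LnCaP-abl and 1.14% and 1.09% in VCaP-CR. Symbols with very low values can hardly reach 2-fold on this scale, which keeps these shares small. Among genes whose mean reached 1 scaled FPKM, which ADCY2 did not, the shares in LAPC4-CR were 5.22% and 5.28%.

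The start regions of the members were looked at for the cAMP response element (CRE), the site of the cAMP-regulated factor CREB, with RefSeq sequences of build GRCh38.p14, which is not the build of the files. Of the members, 7 had 10 windows in the table, each read over the 250 bases before an annotated start. ADCY6, ADCY8 and ADCY9 were not used here. The half-site TGACG, searched on both strands (CGTCA on the other), was found in 4 windows of 3 members, ADCY1, ADCY2 and ADCY3. The 2 windows of ADCY1 overlap and hold the same site. The half-site was in 21.2% of 35114 promoter windows of the same length. The full site TGACGTCA, which contains the half-site on both strands, was in 0 of the 10 windows and in 1.65% of all. ADCY2 is shown because, of the members with a window, it alone differed by at least 2-fold within a pair on the log2(scaled FPKM + 1) scale, and ADCY3 beside it as the member with the smallest ratio of highest to lowest level. Of the 2 windows of ADCY3 the one with the half-site is shown, and the other held 0. Capitals mark the half-site.
ADCY2, chr5:7395888-7396137, plus strand: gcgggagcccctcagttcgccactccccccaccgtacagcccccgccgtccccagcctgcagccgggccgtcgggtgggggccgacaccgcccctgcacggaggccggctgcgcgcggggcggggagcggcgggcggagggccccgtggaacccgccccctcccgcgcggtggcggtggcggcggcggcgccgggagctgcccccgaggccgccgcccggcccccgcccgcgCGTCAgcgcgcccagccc
ADCY3, chr2:24919586-24919835, minus strand: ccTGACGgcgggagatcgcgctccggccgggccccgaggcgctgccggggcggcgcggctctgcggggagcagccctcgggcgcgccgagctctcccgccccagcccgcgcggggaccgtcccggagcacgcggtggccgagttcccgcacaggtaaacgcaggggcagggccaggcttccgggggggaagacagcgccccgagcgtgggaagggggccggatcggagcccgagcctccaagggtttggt
Both windows are rich in G and C, at 85.2% for ADCY2 and 78.0% for ADCY3, against a median of 58.0% over all windows. These letters are a description and show neither binding nor a response.

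ADCY3, a cyclase known from olfactory cilia and expressed in many tissues (ENSG00000138031, chromosome 2, 24895542 to 24996212), stood at 2.91 scaled FPKM (LnCaP) and 4.13 (LnCaP-abl), 4.86 (VCaP) and 4.10 (VCaP-CR), and 4.14 (LAPC4) and 4.15 (LAPC4-CR). Its highest value was 1.67 times its lowest, the smallest such ratio in the family, and LAPC4-CR and LAPC4 were nearly equal (ratio 1.00, 0.876 to 1.15). Its entry overlaps that of CENPO by 3208 bases in the files' coordinates. CENPO itself had 211 to 813 counts, and with no strand setting given in the labels the ADCY3 value is uncertain by the reads of the shared stretch. ADCY1, a calcium-stimulated cyclase known from neurons (ENSG00000164742, chromosome 7, 45580264 to 45729240), stood at 1.41 (LnCaP) and 1.07 (LnCaP-abl), 2.80 (VCaP) and 2.32 (VCaP-CR), and 0.326 (LAPC4) and 0.377 (LAPC4-CR). Its lines kept to their origin, with both VCaP lines highest, both LAPC4 lines lowest, and no pair apart by more than 1.32-fold. ADCY7, known from blood cells (ENSG00000121281, chromosome 16, 48857963 to 48909547), was at 0.632 scaled FPKM in LAPC4 and between 1.15 and 1.62 in the other lines. LAPC4-CR was 1.81-fold above LAPC4 for this gene (1.32 to 2.52).

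ADCY4, ADCY5 and ADCY10 were under 1 scaled FPKM in all 6 lines. ADCY4, known from blood vessels, ran from 0.172 to 0.352, and ADCY10, the soluble cyclase, from 0.176 to 0.305, at 13 to 43 counts in a library. Both lay around the median of the immune markers. ADCY5, a cyclase known from heart and striatum, was at 0.511 in LnCaP, 0.495 in VCaP and 0.550 in LAPC4, and at 0.295 in LnCaP-abl, 0.316 in VCaP-CR and 0.308 in LAPC4-CR. It was the only member whose sensitive and resistant libraries did not overlap, at 31 to 68 counts. Over all 42887 symbols with no filter on low values, 6.69% had resistant libraries below the sensitive ones without overlap, and 2.44% had them above. Among genes whose mean reached 1 scaled FPKM the shares were 3.22% and 3.44%, and 0 of the 5 members at that level besides ADCY8 were among them.

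**Figure D2:**
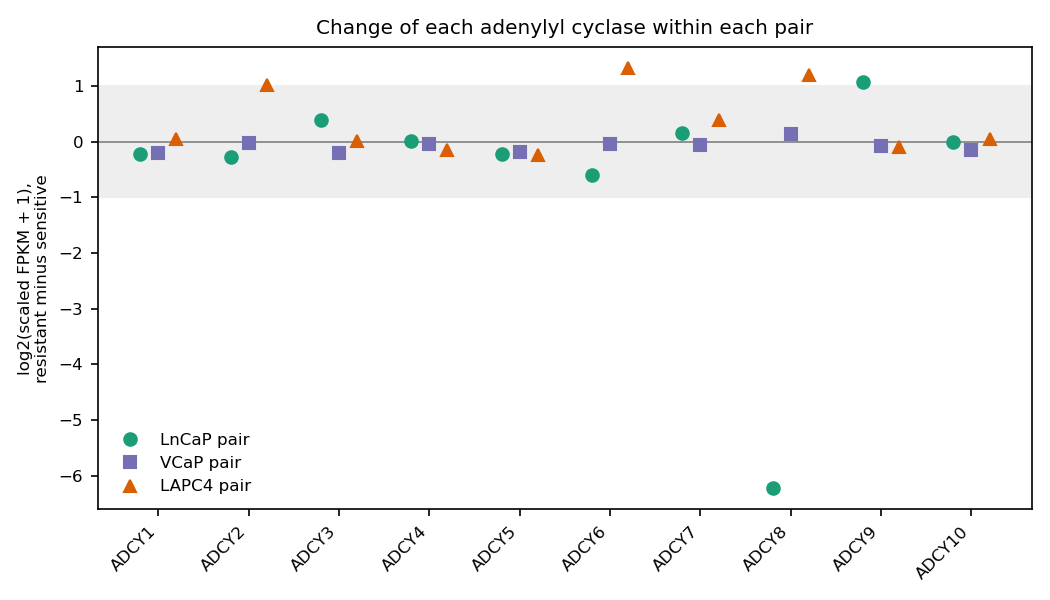
Change of each member within each pair, as the difference in log2(scaled FPKM + 1), resistant minus sensitive. Each point is a difference between 2 libraries, and the grey band marks changes under 2-fold. The VCaP points all lie inside the band, and ADCY8 in the LnCaP pair, at -6.23, lies far outside it.

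Which cyclase led the family differed between lines. In LnCaP the summed level of the 10 members was 104 scaled FPKM, of which ADCY8 made 87.5%. Without ADCY8 the sum there was 13.0, the lowest of the 6 lines. In LnCaP-abl the sum was 16.7, led by ADCY9 at 41.5% and ADCY3 at 24.7%. VCaP and VCaP-CR lay close together, with sums of 22.6 and 20.6, ADCY6 at 48.0% and 51.3%, and ADCY3 second. In LAPC4 the sum was 22.0, shared by ADCY6 at 35.3% and ADCY9 at 32.8%. LAPC4-CR had a sum of 38.1 with ADCY6 at 54.8% and ADCY9 at 17.5%. All 10 members had counts in every library, and between 3 and 6 of them reached 1 scaled FPKM, fewest in LAPC4.

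**Figure D3:**
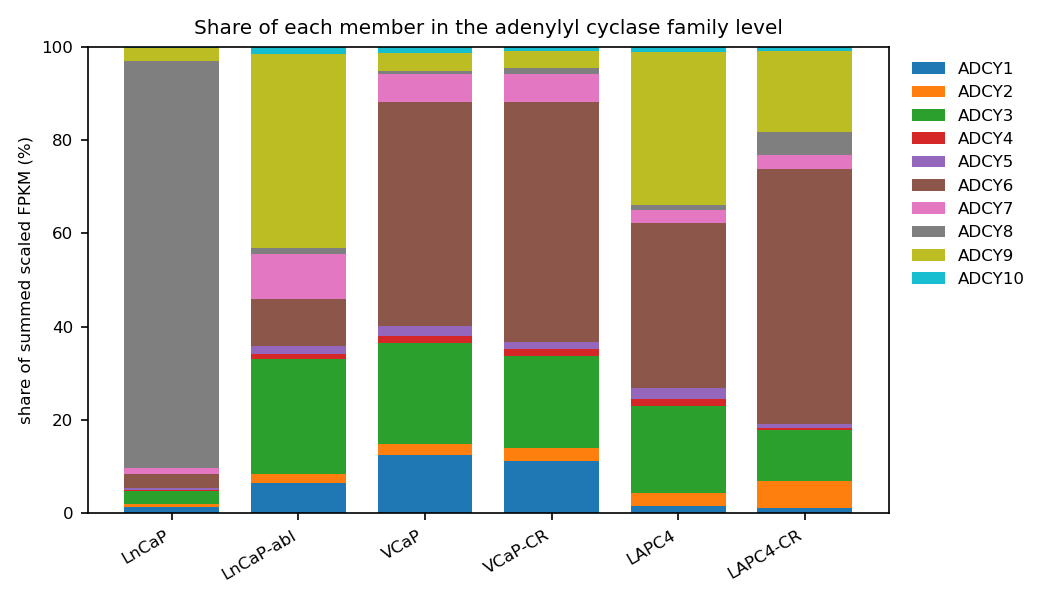
Share of each member in the summed scaled FPKM of the family in each line, in percent. ADCY8 fills 87.5% of the bar of LnCaP, ADCY9 leads in LnCaP-abl, and ADCY6 leads in the other 4 lines.

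Whether members differed between resistant and sensitive lines in common was asked across the 3 pairs with edgeR's quasi-likelihood test on the counts, with the parental line as a block. The test took in the 16231 genes whose mean reached 1 scaled FPKM, and 6 members passed, ADCY1, ADCY3, ADCY6, ADCY7, ADCY8 and ADCY9. ADCY8 passed only through LnCaP and is left out of the test. Of the other 5, edgeR called 0 higher and 0 lower (adjusted p, threshold 5%), against 0.0% of all tested genes in each direction. At an unadjusted p under 0.05 the count was 0 of 5, against 7.86% of tested genes. EdgeR log2 changes were -0.15 ± 0.29 (SE) for ADCY1, 0.10 ± 0.28 for ADCY3, 0.19 ± 0.45 for ADCY6, 0.34 ± 0.34 for ADCY7 and 0.36 ± 0.37 for ADCY9, and their lowest adjusted p was 0.814. DESeq2 and limma also called 0 of the 5. Without a filter on low values the other 4 members could be tested, and the lowest adjusted p of the 9 was 0.865, for ADCY5.

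Within pairs there is no replicate and no test. ADCY8 is left out of these counts, since its changes chose the family. Of the other 5 members that passed the filter, 1 (ADCY9) was at least 2-fold higher and 0 lower in LnCaP-abl, where 6.23% and 6.19% of all tested genes were. In VCaP-CR 0 of the 5 passed 2-fold in either direction, against 2.37% and 2.03%. In LAPC4-CR 1 of the 5 (ADCY6) was at least 2-fold higher and 0 lower, against 5.22% and 5.28%. ADCY8 was 1 of the 1.27% of tested genes with at least 2-fold differences in opposite directions, which is what the family was picked for. ADCY1, ADCY3 and ADCY7 stayed under 2-fold in all pairs, as did 76.7% of tested genes, and 0 of the 5 members had the same direction in all 3 pairs, against 31.8%. The median change over all 10 members, ADCY8 and those under the filter included, was -0.11 for LnCaP, -0.07 for VCaP and 0.05 for LAPC4. Over the 6 members that passed the filter, ADCY8 included, it was -0.03, -0.07 and 0.22. That of all tested genes was -0.01, -0.01 and -0.02.

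The protein-coding genes nearest to ADCY8 were ASAP1 on the side of lower coordinates (131133535 to 131525088 in hg18) and EFR3A on the other, 862 kb away. ASAP1, which encodes a regulator of ARF GTPases, stood at 2.11 scaled FPKM (LnCaP) and 1.69 (LnCaP-abl), 3.95 (VCaP) and 4.22 (VCaP-CR), and 0.626 (LAPC4) and 1.28 (LAPC4-CR). EFR3A, which encodes a plasma membrane scaffold protein, stood at 7.60 (LnCaP) and 14.0 (LnCaP-abl), 20.1 (VCaP) and 15.8 (VCaP-CR), and 9.77 (LAPC4) and 25.3 (LAPC4-CR). Neither neighbour was highest in LnCaP. In the LAPC4 pair EFR3A was higher in LAPC4-CR by a log2 change of 1.29 and ASAP1 by 0.49, and in the LnCaP pair EFR3A was higher in LnCaP-abl by 0.80. The 2 noncoding entries inside ADCY8 had 0 to 3 counts in a library.

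Across the 6 libraries, the genes most like ADCY8 by Pearson's r of log2(scaled FPKM + 1), among 16230 genes, were TWISTNB (0.985), ZNF793 (0.985), KLHL1 (0.981), RP11-1281K21.5 (0.981) and ETV1 (0.981). ETV1, an ETS factor known to be rearranged in this parental line, was at 16.6 scaled FPKM in LnCaP and at most 0.295 in the other lines. KLHL1 was at 5.54 in LnCaP and at most 0.164 elsewhere, and RP11-1281K21.5, a pseudogene with 11 counts in LnCaP, had 0 counts in the other 5. ETV1, KLHL1 and RP11-1281K21.5 passed the filter on the mean only through LnCaP. Their likeness to ADCY8, whose values chose the family, thus rests on that 1 library and is a description only. The genes least like it were POLR2J2 (-0.983), RP11-488L18.8 (-0.982), RPN2 (-0.978), RP11-683L23.1 (-0.974) and RNF146 (-0.963). ADCY8 lay below the immune marker median in 4 of the 6 libraries, and the points are 3 pairs of related lines. An r above 0.9 was reached by 99 of the genes. Without the LnCaP pair the r was -0.47 for ETV1, 0.53 for TWISTNB, 0.80 for ZNF793 and 0.86 for KLHL1. For the genes least like ADCY8 it then lay between -0.99 (RNF146) and -0.64 (POLR2J2).

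The rest of the pathway was taken from 12 lists by role, 204 genes in all, of which 99 were tested. Guanylyl cyclases, which make cyclic GMP, are 1 of the 12 lists, with 9 genes listed and 2 tested. EdgeR called 0 of them in either direction after adjustment, and 17 of the 99 had an unadjusted p under 0.05, against 7.86% of all tested genes. DESeq2 called 2 higher and 3 lower, and 83 and 55 of all 16231 genes. In the LnCaP pair 13 of the 99 were at least 2-fold higher and 9 lower, which is 13.1% and 9.09%, against 6.23% and 6.19% of all tested genes and 7.27% and 4.04% of the protein-coding ones. In the VCaP pair 3 were higher and 2 lower (3.03% and 2.02%, against 2.37% and 2.03% of all tested genes). In the LAPC4 pair 9 were higher and 10 lower (9.09% and 10.1%, against 5.22% and 5.28%). Their median changes were 0.17, 0.03 and -0.06. Among the genes counted as higher, OPRK1, PTGER2 and NR4A2 passed the filter on the mean only through the line in which they were high.

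**Figure D4:**
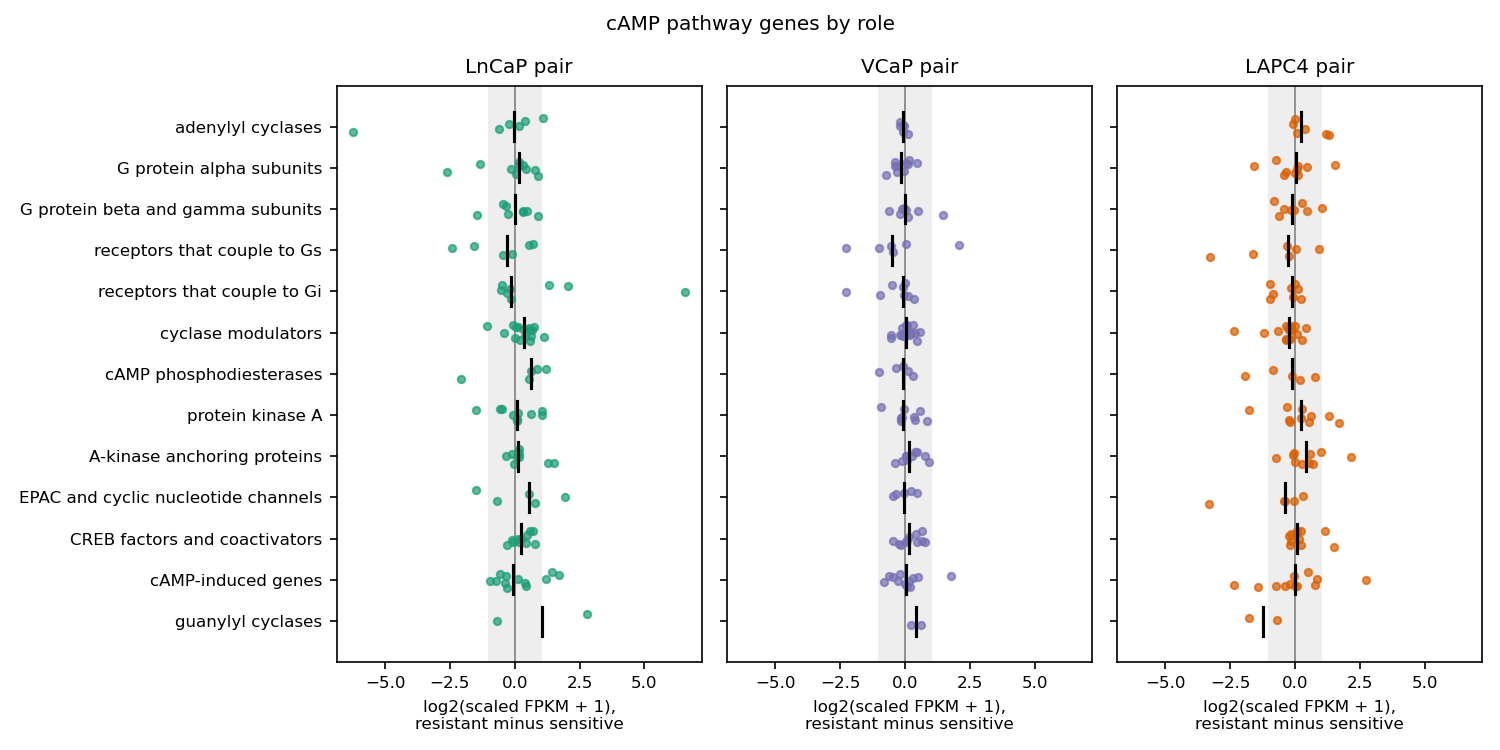
Change of each tested cAMP pathway gene within each pair, by role, as the difference in log2(scaled FPKM + 1), resistant minus sensitive. Points are genes, black lines list medians, and the grey band marks changes under 2-fold. The LnCaP pair spans from ADCY8 at -6.23 to OPRK1 at 6.57, and the VCaP points cluster most closely around 0.

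Receptors that couple to Gs stand above the cyclases. Of 37 listed, 6 were tested, and 0 passed edgeR in either direction. PTGER4, a prostaglandin E2 receptor named after its values were seen, was lower in 3 of 3 pairs. Its edgeR log2 change was -2.11 ± 0.33 (SE), with an adjusted p of 0.567. The adjusted p was 5.3e-05 in DESeq2, 0.022 in edgeR with no filter and 0.60 in limma. With a pair left out of edgeR it ran from 0.18 to 0.31. PTGER2, another prostaglandin E2 receptor, reached 6.60 in VCaP-CR against 0.785 in its parent, and 0.313 or less elsewhere. It passed the filter on the mean only through VCaP-CR.

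Receptors that couple to Gi oppose the cyclases, and 8 of 30 listed were tested. In the LnCaP pair 3 of the 8 (37.5%) were at least 2-fold higher and 0 lower, against 6.23% and 6.19% of all tested genes. They were OPRK1, ADRA2A and CXCR7, named after its values were seen, an atypical chemokine receptor gene kept in this list although its product is known to act mainly through arrestin. OPRK1, the kappa opioid receptor, was at 0.641 scaled FPKM in LnCaP and 155 in LnCaP-abl, and between 0.253 and 2.11 in the other lines. It passed the filter on the mean only through LnCaP-abl. Its own rise thus put it among both the 3 and the 8, so the filter raised the share of 37.5%. ADRA2A, the alpha-2A adrenergic receptor, was at 0.893 in LnCaP and 3.74 in LnCaP-abl, while the order was opposite in the VCaP lines, with 5.71 in the parent and 0.371 in VCaP-CR. In the VCaP pair 0 of the 8 were at least 2-fold higher and 1 lower, against 2.37% and 2.03% of all tested genes. In the LAPC4 pair 0 were higher and 0 lower, against 5.22% and 5.28%. EdgeR called 0 of the 8.

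Among G protein alpha subunits, GNAS, which encodes Gs and was named after its values were seen, was at 29.6 scaled FPKM (LnCaP) and 55.8 (LnCaP-abl), 34.3 (VCaP) and 48.2 (VCaP-CR), and 75.5 (LAPC4) and 104 (LAPC4-CR). It was higher in 3 of 3 pairs, by 0.63 ± 0.23 (SE) on the edgeR log2 scale with an adjusted p of 0.597. GNAI1, which encodes a Gi subunit, was lower in 3 of 3 pairs, at 6.79 against 0.260 (LnCaP, LnCaP-abl), 14.0 against 10.6 (VCaP, VCaP-CR) and 23.8 against 7.23 (LAPC4, LAPC4-CR). The edgeR estimate was -2.03 ± 0.77 (SE, log2), with an adjusted p of 0.603, and ran from -3.03 without the VCaP pair to -1.04 without the LnCaP pair. GNAT2, a transducin subunit, was at 0.983 in LAPC4 and 4.74 in LAPC4-CR. Among the beta and gamma subunits, GNB4 was at 11.8 in LnCaP and 3.66 in LnCaP-abl, and at 12.1 in LAPC4 and 25.8 in LAPC4-CR. These are the directions of ADCY8 in those pairs. In VCaP and VCaP-CR, GNB4 was at 1.49 and 0.620, and ADCY8 at 0.172 and 0.282. GNG4 reached 30.3 in VCaP-CR against 10.3 in its parent, and stayed under 1 elsewhere. EdgeR called 0 of 10 alpha and 0 of 8 beta and gamma subunits.

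Of 18 modulators of cyclases, 16 were tested and edgeR called 0. CAMK2B, a calmodulin-dependent kinase, was at 1.65 scaled FPKM in LnCaP and 0.259 in LnCaP-abl. PRKCA, a protein kinase C, was at 0.895 in LnCaP and 3.15 in LnCaP-abl. RGS2, a regulator of G protein signalling that cAMP also induces, was at 52.7 in LAPC4 and 9.44 in LAPC4-CR and at most 1.37 in the other lines.

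Phosphodiesterases remove cAMP, and 5 of 16 listed were tested, with 0 edgeR calls. PDE10A was at 4.11 scaled FPKM (LnCaP) and 0.205 (LnCaP-abl), 0.519 (VCaP) and 0.664 (VCaP-CR), and 3.66 (LAPC4) and 0.209 (LAPC4-CR). It was lower in 2 of 3 pairs, by -2.88 ± 1.05 (SE) on the edgeR log2 scale with an adjusted p of 0.597, and its adjusted p was 0.021 in DESeq2 and 0.014 in edgeR without the VCaP pair, which has the opposite direction. It was 0.62 without the LnCaP pair, 0.79 without the LAPC4 pair, 0.60 in limma and 0.087 with no filter, and over all alternatives it ran up to 1.00. PDE4D, a phosphodiesterase that cAMP itself induces, was at 0.987 in LnCaP and 3.56 in LnCaP-abl and was higher in 3 of 3 pairs, by 1.06 ± 0.33 (SE) on the edgeR log2 scale with an adjusted p of 0.593, and by 0.68 without the LnCaP pair.

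Protein kinase A is the main effector, and 10 of 11 listed genes were tested, with 0 edgeR calls. PRKAR2B, a regulatory subunit, was at 5.85 scaled FPKM (LnCaP) and 13.3 (LnCaP-abl), 12.0 (VCaP) and 22.6 (VCaP-CR), and 0.879 (LAPC4) and 5.14 (LAPC4-CR). It was higher in 3 of 3 pairs, by 1.52 ± 0.37 (SE) on the edgeR log2 scale with an adjusted p of 0.593. The adjusted p was 0.033 in DESeq2, 0.036 in edgeR with no filter and 0.60 in limma. With a pair left out of edgeR it ran from 0.28 to 0.54. PKIA, which encodes an inhibitor of the kinase, was at 3.73 in LAPC4 and 0.391 in LAPC4-CR, and was highest in the VCaP lines, at 20.3 and 31.0. PKIB, which encodes another inhibitor, was at 5.37 in LnCaP and 12.4 in LnCaP-abl. PRKX, a related kinase, was at 4.55 in LnCaP and 0.983 in LnCaP-abl. Of the anchoring proteins that place the kinase, 10 of 15 were tested and edgeR called 0. AKAP9 was at 2.08 in LAPC4 and 12.6 in LAPC4-CR, and EZR, which encodes ezrin, at 6.80 in LnCaP and 21.2 in LnCaP-abl.

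Of the genes for EPAC, its targets and cAMP-binding channels, 5 of 12 were tested and edgeR called 0. ABCC4, a transporter that exports cAMP, was at 17.1 scaled FPKM (LnCaP) and 5.45 (LnCaP-abl), 23.4 (VCaP) and 18.4 (VCaP-CR), and 15.9 (LAPC4) and 0.712 (LAPC4-CR). RAP1B, a small GTPase that EPAC activates, was at 3.49 in LnCaP and higher in LnCaP-abl by a log2 change of 1.92. All 11 CREB factors and coactivators were tested, and edgeR called 0. The largest difference among them was that of the coactivator EP300 in the LAPC4 pair, at 2.06 in LAPC4 and 7.70 in LAPC4-CR.

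Of 20 listed genes that cAMP is known to induce, 12 were tested and edgeR called 0. CITED2, a transcriptional coregulator, was at 7.35 scaled FPKM (LnCaP) and 26.3 (LnCaP-abl), 16.9 (VCaP) and 59.9 (VCaP-CR), and 25.5 (LAPC4) and 46.4 (LAPC4-CR). It was higher in 3 of 3 pairs, by 1.52 ± 0.30 (SE) on the edgeR log2 scale with an adjusted p of 0.593. The adjusted p was 0.006 in DESeq2, 0.020 in edgeR with no filter and 0.60 in limma. With a pair left out of edgeR it ran from 0.18 to 0.46. NR4A2, a nuclear receptor, was at 0.547 in LAPC4 and 9.29 in LAPC4-CR and under 1 in the other lines. It passed the filter on the mean only through LAPC4-CR. Other tested genes of the list went either way. FOS, JUNB and PDE4D were also higher in 3 of 3 pairs, while NR4A1, ATF3 and DUSP1 were lower in 3 of 3. The edgeR log2 changes of these last were -0.94, -0.86 and -0.65, with adjusted p-values of 0.593, 0.609 and 0.657. In the LAPC4 pair 1 of the 12 was at least 2-fold higher and 2 lower, against 5.22% and 5.28% of all tested genes. The median change of the list was -0.09 for LnCaP, 0.04 for VCaP and -0.01 for LAPC4, beside the -0.01, -0.01 and -0.02 of all tested genes.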

How the data were processed

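RNA was made into SOLiD total RNA libraries, per the labels' protocols. The submitters' processing notes name HTSeq and build hg18. Aligner, annotation release and strand setting: not given in the sources used here. The authors deposited a count and an FPKM value for each of 51698 entries. The deposited FPKM was rebuilt within 1% for 51698 entries as the count over gene length and summed counts. Starts are printed with 1 added.

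Entries of short RNA classes (8763) were left out and entries sharing a symbol summed. FPKM was divided by a factor per library (0.847 to 1.11), taken as its median ratio to the mean profile (geometric) of 11600 genes. Counts were tested with edgeR 4.0.16 (TMM, Benjamini-Hochberg, R 4.3.3), with DESeq2 1.42.0 and limma 3.58.1 as alternatives. The edgeR test was also run on simulated counts, with 1 dispersion for all genes and no differences between parental lines. That run cannot show how the test does where lines and pairs differ, as here. Adjusted p-values are over all genes tested. The SE printed with an edgeR log2 change was derived from the test, as the size of the change over the square root of its F statistic. Lines of 1 pair deviated together from their group means (r 0.46 in the LnCaP, 0.73 in the VCaP and 0.59 in the LAPC4 pair), and line names give the pairing. With 1 library per line and the parental line as a block, p-values rest on how the resistant against sensitive difference varies between pairs. Intervals are exact 95% Poisson intervals and cover counting error only.

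Named genes are all members, the largest difference of at least 2-fold in each direction per list and pair, the 5 genes most and least like ADCY8, its nearest coding neighbours, and KLK3 and ERG. Items withheld for evaluation are not reported here. Members and lists were chosen with earlier results of these data known.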

Additional observations from a re-analysis of the deposited data

Results flagged for a closer look

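Among the 6 members and 99 pathway genes that passed the filter, 3 had differences of at least 2-fold in opposite directions in 2 pairs. They were ADCY8, chosen for this, and 2 of the 99 pathway genes, against 1.27% of all tested genes. With 1 library per line the difference between pairs was not tested. ADCY8 had a log2 change of -6.23 in the LnCaP pair and 1.19 in the LAPC4 pair, a difference of -7.42, and was chosen for it. ADRA2A, the alpha-2A adrenergic receptor, had 1.32 in the LnCaP pair and -2.29 in the VCaP pair, a difference of 3.61. GNB4, a G protein beta subunit, had -1.45 in the LnCaP pair and 1.03 in the LAPC4 pair, a difference of -2.48.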

How the results depend on the processing

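EdgeR and every alternative run called 0 members, in most settings with 0 calls among all genes, so this count says nothing about stability. Of 120 member changes within pairs under other settings, 111 moved by less than the counting error of the reported value, small changes that turned in sign included. With ADCY8 counted, which earlier counts leave out, 2 members that passed the filter were at least 2-fold higher in LAPC4-CR, ADCY6 and ADCY8. Without the filter there were 3, with ADCY2 added. The shares of all genes were 5.22% with the filter and 2.21% without it. The fit with no replicate block called 0 members and 0 pathway genes, as with the pairing, and the pairing changed no other call. Pathway genes called by edgeR, 0 higher and 0 lower, became 2 and 3 in DESeq2 and 2 and 2 with no filter on low values. Among all genes DESeq2 called 83 higher and 55 lower of 16231, and edgeR with no filter 95 and 58 of 41666. With a pair left out the calls among pathway genes ran from 0 to 0 upward and from 0 to 2 downward, the 2 without the VCaP pair and PDE10A among them. That fit called 13 higher and 20 lower of all 16231 genes. The edgeR log2 change turned in sign for ADCY1 with no filter (0.0098). With 1 pair left out it ran from -0.10 to 0.28 for ADCY3 and from -0.12 to 0.63 for ADCY9, both lowest without the LnCaP pair, and from -0.43 to 0.71 for ADCY6, lowest without the LAPC4 pair. For ADCY7 it ran from 0.08 to 0.59, lowest without the LAPC4 pair. The cause was not tested. A pseudocount of 0.25 gave ADCY8 changes of -7.58 in the LnCaP pair and 2.10 in the LAPC4 pair, and a pseudocount of 5 gave -4.20 and 0.38. With ADCY8 counted, that pseudocount left 0 members at least 2-fold higher in the LnCaP pair and 1, ADCY6, in the LAPC4 pair. A pseudocount of this size shrinks the change of low genes. ADCY8 made 83.1% of the family's counts in LnCaP. The family level in LnCaP, LnCaP-abl, VCaP, VCaP-CR, LAPC4 and LAPC4-CR was 111, 18.1, 19.1, 18.4, 23.0 and 42.3 with FPKM as deposited, and 133, 21.4, 29.0, 26.8, 28.5 and 49.8 with TMM-scaled counts per kilobase, whose total leaves out short RNAs. Of the 5 genes most like ADCY8, 2 stayed among the 5 with a pseudocount of 0.25, 3 with 5, and 0 to 1 with a pair left out. Of the 5 least like it, 3 stayed with either pseudocount and 0 to 0 with a pair left out. ETV1 turned to an r of -0.47 without the LnCaP pair. Keeping short RNA classes, chosen after seeing the data, called 0 members and 0 pathway genes. Depth limits the low members: ADCY4, at 13 and 17 counts in the LnCaP pair, had a ratio interval of 0.468 to 2.29.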

Other observations

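Guanylyl cyclases make cyclic GMP, the other cyclic nucleotide, and 2 of 9 listed genes were tested, both subunits of the nitric oxide receptor. GUCY1B3, the beta subunit, was at 0.638 scaled FPKM in LnCaP and 10.2 in LnCaP-abl, 6.31 (VCaP) and 10.2 (VCaP-CR), and 26.3 (LAPC4) and 15.8 (LAPC4-CR). GUCY1A3, the alpha subunit, was at 21.9 and 13.1 in the LnCaP pair, 23.8 and 28.4 in the VCaP pair and 13.6 and 3.20 in the LAPC4 pair. The lowest GUCY1B3 level of the 6 was that of LnCaP. EdgeR called 0 of the 2 between resistant and sensitive lines, with a lowest adjusted p of 0.681.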
